A study of Mus musculus with 8 samples.

Results

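The 9 genes described here, measured in mouse tongue epithelium, encode parts of the hemidesmosome, chains of its laminin anchor and integrin α3β1. They are Col17a1, Itga6, Itgb4, Itga3, Itgb1, Lama3, Lamb3, Dst and Plec, a chosen list that does not hold every such part. They were taken by symbol from the 32285 genes counted in 8 single-cell libraries. Their levels are given in epithelial cells, defined as cells in which Krt5, Krt14, Krt15, Krt13 and Krt6a together made up at least 0.5% of the molecules and in which Ptprc, the leukocyte gene for CD45, was not detected. There were 12957 such cells among the 42550 in the matrices, and all 9 genes passed the filter on low counts.

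Every mouse carried Krt14-CreERT and LSL-rtTA, and, as the study states, a tetON_H2B-GFP reporter. N mice had nothing further, E mice had tetON_E6-E7 (the oncogenes of a human papillomavirus), Y mice had tetON_YAP1S127A (a constitutively active YAP1), and EY mice had both. The animals were adult littermates, given tamoxifen in the tongue and doxycycline in the chow, and viable cells were sorted from the dissected epithelium 15 days after induction. The Krt14 promoter drives the Cre, so recombination starts in basal cells. By the study's methods a library had 1 animal, except that the name of N2 carries 2 animal numbers and may stand for a pool. The 2 libraries of a group are named by number, as N1 and N2, and where a level is given for each library, number 1 comes first.

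Hemidesmosomes rivet basal keratinocytes to the basement membrane. Inside the cell, plectin (Plec) and the epithelial isoform of dystonin, BP230 (Dst), link keratin filaments to the plaque. Integrin α6β4 (Itga6, Itgb4) and collagen XVII (Col17a1) cross the membrane. Outside it, laminin 332, whose chains include those encoded by Lama3 and Lamb3, is the ligand. Integrin α3β1 (Itga3, Itgb1) binds the same laminin from focal adhesions, which join actin rather than keratin. Cells that leave the basal layer lose these contacts, switching in the oral mucosa from Krt5 and Krt14 to Krt13 and Krt4.

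Start-site sequence is shown for members with a motif of the factors that YAP works through, as Y and EY mice carry an active YAP1. RefSeq windows of 300 bases (250 before the start, 50 from it) on GRCm38.p6 were at hand for 5 of the 9 genes: Col17a1, Itga3, Itgb1, Lamb3 and Dst, with 8 windows in all. Itga6, Itgb4, Lama3 and Plec had none. Each window was searched on both strands for GGAATG, the core of the motif of TEAD factors, the DNA-binding partners of YAP, and for TGANTCA, the AP-1 motif. The motifs do not overlap one another. The first was in 2 of the 8 windows and in 14.7% of all 32851 windows, and the second in 1 of 8 and in 7.81%. Shown are the 3 windows with a match, in capitals, and that of Col17a1, the member with the widest relative spread of levels, in which neither was found. Counted from the start site of the window shown, the match is at −167 for Lamb3, at −7 for Itgb1 and at 12 for Itga3. Lamb3 and Itga3 each have another window, at another start site, with neither motif. The other Itga3 window, chr11:95076665-95076964, spans the start of the annotated gene, whereas the window shown lies inside the gene.
Lamb3, chr1:193301993-193302292, plus strand, GGAATG on the opposite strand: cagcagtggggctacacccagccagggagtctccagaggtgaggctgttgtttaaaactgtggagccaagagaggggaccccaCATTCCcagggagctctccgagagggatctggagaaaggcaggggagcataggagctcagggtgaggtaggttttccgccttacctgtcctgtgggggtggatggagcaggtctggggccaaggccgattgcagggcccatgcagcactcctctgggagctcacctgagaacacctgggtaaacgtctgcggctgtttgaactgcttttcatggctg
Itgb1, chr8:128685404-128685703, plus strand, GGAATG: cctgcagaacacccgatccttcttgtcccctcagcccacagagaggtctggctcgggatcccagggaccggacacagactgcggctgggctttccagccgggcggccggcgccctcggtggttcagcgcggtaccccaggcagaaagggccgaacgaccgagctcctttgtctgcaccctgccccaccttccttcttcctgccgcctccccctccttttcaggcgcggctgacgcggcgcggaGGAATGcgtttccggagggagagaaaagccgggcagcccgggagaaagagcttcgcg
Itga3, chr11:95069149-95069448, minus strand, TGANTCA: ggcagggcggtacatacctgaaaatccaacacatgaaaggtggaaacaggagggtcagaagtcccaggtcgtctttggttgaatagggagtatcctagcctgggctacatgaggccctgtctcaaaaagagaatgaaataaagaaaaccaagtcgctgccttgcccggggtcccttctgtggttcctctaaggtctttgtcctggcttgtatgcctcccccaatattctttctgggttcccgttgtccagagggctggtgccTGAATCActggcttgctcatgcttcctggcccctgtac
Col17a1, chr19:47691993-47692292, minus strand, no match: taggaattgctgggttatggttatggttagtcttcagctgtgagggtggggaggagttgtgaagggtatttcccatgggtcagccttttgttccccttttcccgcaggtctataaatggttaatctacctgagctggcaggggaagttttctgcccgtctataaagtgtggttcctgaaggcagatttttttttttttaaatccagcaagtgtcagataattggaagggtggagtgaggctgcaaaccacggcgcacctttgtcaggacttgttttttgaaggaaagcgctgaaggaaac
A match is a run of letters and not a shown binding site.

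Libraries were unequal in depth. Epithelial cells numbered 3447 and 415 for N, 4055 and 553 for E, 1289 and 1001 for Y, and 170 and 2027 for EY. Their summed UMIs (unique molecular identifiers, 1 per captured transcript) ran from 2454816 in EY1 to 55154619 in E1. EY1 was thus the least precise library. Between 2 and 19 cell barcodes were shared by any pair of libraries. Mouse Yap1 was at 32.8 to 47.8 CPM (UMIs scaled to a total of 1000000) in the 4 libraries without the YAP transgene and 166 to 452 CPM in the 4 with it. The epithelial list of 8 markers summed to 4785 to 6121 CPM. Among genes of other cell types, 5 fibroblast markers without Dcn summed to 0.166 to 5.78 CPM and 5 endothelial markers to 0 to 0.572 CPM, with Cdh5, Cldn5 and Emcn at 0 throughout. The Schwann, melanocyte and muscle lists (3, 3 and 5 genes) each stayed at or under 1.22 CPM. The 4 hemoglobin genes of the erythroid list summed to 1.73 to 679 CPM, lowest in EY2 and highest in N2, and the 4 gland markers to 6.41 to 541 CPM, highest in N2 and E2. The 3 pericyte markers summed to 24.1 to 30.8 CPM in N, E and Y and 7.94 to 8.96 CPM in EY, with Rgs5 at 0 throughout. All 10 immune markers had some UMIs. They summed to 49.4 to 234 CPM in N, E and Y, 651 CPM in EY2 and 2276 CPM in EY1, mostly S100a8 and S100a9, which stressed keratinocytes can also make. The part of erythroid, gland, pericyte and immune transcripts in the values of the members was not tested.

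Dcn, usually a fibroblast gene, moved with the groups and was lowest in EY, as Col17a1 was. It had at least 1 UMI in 67.8% and 62.7% of epithelial cells for N, 52.8% and 52.4% for E, 55.1% and 40.4% for Y, and 24.7% and 6.41% for EY. Its summed level was 1099 to 1223 CPM in N, 720.2 to 970.0 CPM in E, 336 to 805 CPM in Y and 27 to 252 CPM in EY. Keeping only cells without a UMI of the stromal and muscle lists, Dcn among them, left 123 (EY1) to 1855 (E1) cells in a library. The log2 fold change of Col17a1 in EY against N was then −1.24 (SE 0.56, edgeR adjusted p = 0.142), against −1.10 (SE 0.53, edgeR adjusted p = 0.162) in all epithelial cells. Of the 9 members 2 were called, both lower, at a background of 23.9%, namely Dst, at −1.07 (SE 0.30, edgeR adjusted p = 0.0368), and Plec, at −0.61 (SE 0.17, edgeR adjusted p = 0.0366).

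Collagen XVII had the widest spread in relative terms, from the lowest to the highest library. Col17a1 (ENSMUSG00000025064, chromosome 19, 47646344 to 47692094, minus strand, GRCm38) stood at 319.5 and 494 CPM for N, 325 and 502 for E, 369 and 337 for Y, and 297 and 86.1 for EY. EY2 was the lowest of all libraries and EY1 the second lowest and both lay below both N libraries, but the pair differed from each other more than EY1 differed from N1. Group means were 407 ± 123 CPM in N and 192 ± 149 CPM in EY (SD, n = 2). The log2 fold change of EY against N was −1.10 (SE 0.53, edgeR adjusted p = 0.162), which did not pass the threshold of 0.05.

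The integrin α6β4 pair moved less. Itga6 (ENSMUSG00000027111, chromosome 2, 71745616 to 71858416, plus strand) was at 192 and 266 CPM for N, 216 and 217 for E, 191 and 179.6 for Y, and 200.3 and 137 for EY. EY2 was the lowest, while EY1 lay between N1 and N2. The EY against N difference was −0.45 (SE 0.22, edgeR adjusted p = 0.177). Itgb4, whose long cytoplasmic tail holds plectin (ENSMUSG00000020758, chromosome 11, 115974709 to 116008412, plus strand), was at 144 and 199 CPM for N, 164 and 194 for E, 173 and 160.3 for Y, and 142 and 129 for EY. Both EY libraries fell below both N libraries, EY1 by a narrow margin below N1. The log2 difference was −0.34 (SE 0.19, edgeR adjusted p = 0.214), and neither chain passed the threshold.

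The α3β1 chains pointed the other way. Itga3 (ENSMUSG00000001507, chromosome 11, 95044474 to 95076801, minus strand) was at 27.5 and 46.7 CPM for N, 31.3 and 37.1 for E, 27 and 25.6 for Y, and 43.1 and 65.7 for EY. EY2 was the highest library, and EY1 lay just under N2. The log2 fold change was 0.59 (SE 0.29, edgeR adjusted p = 0.173) for EY against N and 1.07 (SE 0.29, edgeR adjusted p = 0.101) for EY against Y, where both EY libraries exceeded both Y libraries. Itgb1, the common β chain of many integrins (ENSMUSG00000025809, chromosome 8, 128685654 to 128733200, plus strand), was at 132 and 198 CPM for N, 147 and 156 for E, 193 and 200.1 for Y, and 236 and 213 for EY. The 3 highest libraries were EY1, EY2 and Y2, and N2 lay above Y1. In an additive model over the 8 libraries, the YAP transgene gave 0.41 (SE 0.14, edgeR adjusted p = 0.0999) for this gene, whose window also holds GGAATG, and E6-E7 gave 0.03 (SE 0.14, edgeR adjusted p = 0.95). Neither passed.

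Lama3 (ENSMUSG00000024421, chromosome 18, 12333819 to 12583013, plus strand), the laminin α3 chain, was at 27.7 and 52.7 CPM for N, 36.2 and 39 for E, 37.8 and 26.8 for Y, and 43.9 and 19.3 for EY. EY1 and EY2 were the second highest and the lowest of the 8, and the log2 fold change of EY against N, −0.41 (SE 0.44, edgeR adjusted p = 0.516), was not past the threshold. It turned positive without EY2, at 0.14 (SE 0.42, edgeR adjusted p = 0.885), or without N2, at 0.13 (SE 0.44, edgeR adjusted p = 0.877). Lamb3, the β3 chain (ENSMUSG00000026639, chromosome 1, 193207699 to 193343878, plus strand), was at 82.5 and 112 CPM for N, 86.5 and 105 for E, 103 and 85.1 for Y, and 87.4 and 55 for EY. EY2 was lowest, and EY1 lay between N1 and N2. The difference was −0.47 (SE 0.26, edgeR adjusted p = 0.222). The YAP transgene, read for this gene because a window of it holds GGAATG, gave −0.24 (SE 0.19, edgeR adjusted p = 0.388).

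The plakin Dst (ENSMUSG00000026131, chromosome 1, 33908225 to 34308661, plus strand) separated Y from the rest. It was at 362 and 407 CPM for N, 289 and 383 for E, 589.8 and 586 for Y, and 332 and 160.4 for EY. Both Y libraries stood above all 6 others, and both EY libraries below both N libraries. How many of all genes have both Y libraries above the other 6 was not counted. Y against N gave 0.61 (SE 0.31, edgeR adjusted p = 0.503) and EY against Y −1.26 (SE 0.32, edgeR adjusted p = 0.0907). The test of whether the YAP effect differed with and without E6-E7, the interaction, gave −1.07 (SE 0.44, edgeR adjusted p = 0.42). None of these passed. DESeq2 did call EY against Y, at an adjusted p of 0.00496. Counts per gene do not tell the epithelial isoform of Dst from its others, and the same holds for Plec.

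Plectin was the only member called in EY against N. Plec (ENSMUSG00000022565, chromosome 15, 76170974 to 76232574, minus strand) was at 234 and 293 CPM for N, 192 and 207 for E, 249 and 250.0 for Y, and 193 and 167 for EY. Every E and EY library lay below every N and Y library, and 1.91% of all genes were lower with E6-E7 without overlap. The log2 fold change of EY against N was −0.55 (SE 0.16, edgeR adjusted p = 0.0487), with means of 263 ± 42 CPM in N and 179.8 ± 18.7 CPM in EY (SD, n = 2). It sat at the edge of the threshold, and 10 of the 17 alternatives did not call it, among them leaving out any 1 library other than EY1. For E6-E7 over all 8 libraries the value was −0.44 (SE 0.11, edgeR adjusted p = 0.229). DESeq2 called it, with an adjusted p of 0.0226. The genes Parp10 for Plec, 4930570N18Rik for Lamb3, and Gm13663 and Gm13662 for Itga6 overlap on the same strand in the annotation, so their share of the reads is uncertain.

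**Figure D1:**
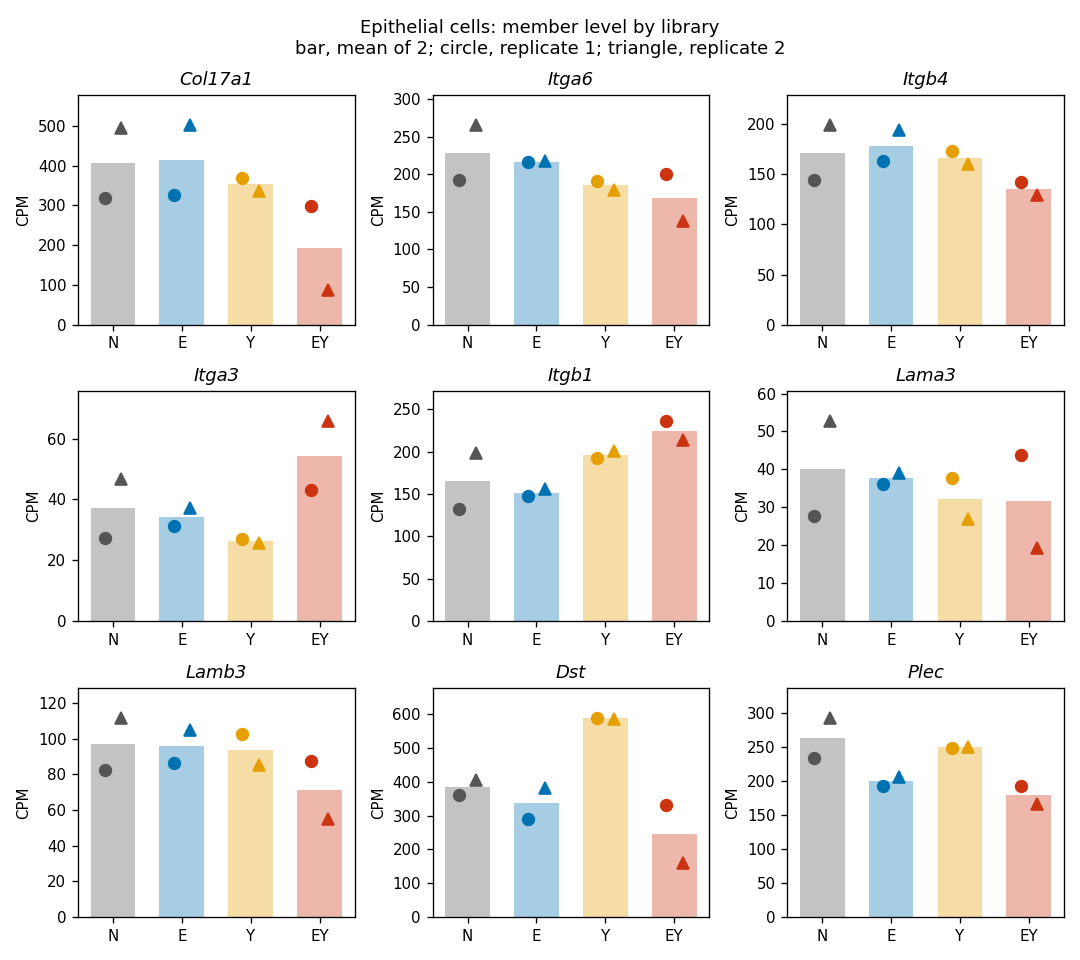
Level of each of the 9 genes in epithelial cells, in CPM on a linear axis from 0, for the groups N, E, Y and EY. Bars are means of 2 libraries, circles replicate 1 and triangles replicate 2. Dst was highest in both Y libraries, Plec was lower in every E and EY library than in every N and Y library, and the EY points for Col17a1, at 297 and 86.1 CPM, stood far apart.

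The counts of called members are set beside the share of all genes called, and with 9 members no difference from those shares was tested. EY against N called 1 of the 9 members (0 higher, 1 lower) where 18.8% of 13555 tested genes were called. The median log2 fold change was −0.45 over the members and −0.05 over all genes. The member median depended on single libraries, at −0.71 without EY1, −0.20 without EY2, −0.63 without N1 and −0.19 without N2. Y against N called 0 of 9 (0.457% of genes), E against N 0 (0.243%), EY against Y 0 (0.0443%), EY against E 0 (16.4%), the YAP transgene 0 (8.98%), E6-E7 0 (0.406%) and the interaction 0 (0.0%). At an unadjusted p under 0.05 in edgeR the counts of members were 0, 1, 3, 2, 1, 2 and 2 in that order. Among the 13555 genes tested they were 1649, 506, 3169, 4857, 4252, 1554 and 1562. DESeq2 called 0, 0, 2, 0, 0, 1 and 0 members, and 457, 131, 880, 2652, 2762, 293 and 89 of all genes. The comparisons with N share N1 and N2, and those with EY share both EY libraries. In EY against N the 2 groups' libraries did not overlap for 5 members, 1 higher (28.7% of all genes were) and 4 lower (33.9%). In Y against N they did not overlap for 3, with Dst higher (24.1%) and Itga3 and Itga6 lower (25.0%). With 2 libraries against 2, non-overlap was therefore common among all genes.

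The number of called members depended on cells that the study's upper limits (5500 genes, 30000 UMIs) set aside. Those limits removed 64.7% of the cells that would otherwise have passed the epithelial gate in EY1, 17.7% in EY2, 44.0% in N2, 41.4% in E2, 37.0% in Y2, 32.1% in Y1, 3.11% in E1 and 2.1% in N1. With these cells kept, EY1 held 481 cells. Col17a1 in EY1 then came to 168 CPM, against 297 within the limits, and in EY2 to 83.5 CPM. EY against N then called 6 of 9 members at a background of 40.8%. Those higher were Itga3, 0.95 (SE 0.22, edgeR adjusted p = 0.0121), and Itgb1, 0.59 (SE 0.15, edgeR adjusted p = 0.0175). Those lower were Col17a1, −1.39 (SE 0.29, edgeR adjusted p = 0.00803), Lamb3, −0.52 (SE 0.12, edgeR adjusted p = 0.0109), Dst, −0.84 (SE 0.14, edgeR adjusted p = 0.00424), and Plec, −0.46 (SE 0.10, edgeR adjusted p = 0.0103). The cells above the limits had a median of 34867 (EY2) to 51386 (EY1) UMIs, doublets were not called here, and their part in the result was not tested.

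Leaving out EY1 instead gave 5 called members, all lower, at a background of 28.5%. The lone EY2 was then assumed to vary like the other groups. Col17a1 changed by −2.21 (SE 0.35, edgeR adjusted p = 0.0118), Dst by −1.23 (SE 0.20, edgeR adjusted p = 0.0118), Lamb3 by −0.79 (SE 0.23, edgeR adjusted p = 0.047), Itga6 by −0.71 (SE 0.20, edgeR adjusted p = 0.0444) and Plec by −0.63 (SE 0.17, edgeR adjusted p = 0.0376). Without EY2, 0 members were called, with Col17a1 at −0.46 (SE 0.34, edgeR adjusted p = 0.47). Over the 17 alternatives of EY against N, Col17a1, Itga6, Itgb4, Lamb3, Dst and Plec kept a negative and Itga3 and Itgb1 a positive fold change, and Lama3 changed sign.

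**Figure D2:**
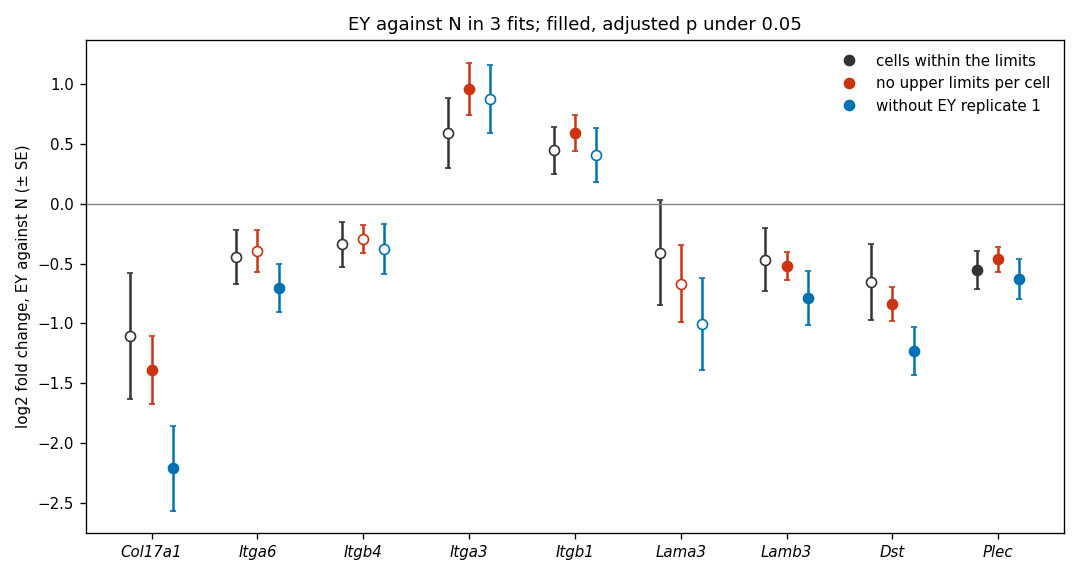
log2 fold change of EY against N with its standard error for each of the 9 genes, in 3 edgeR fits: cells within the limits (black), no upper limits per cell (red) and without EY replicate 1 (blue). Filled points have an adjusted p under 0.05. Col17a1 went from −1.10 within the limits to −1.39 and −2.21 in the other fits, and Itga3 and Itgb1 were the members above 0 in each.

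Counted per cell, both EY libraries held fewer of the members. Each cell was thinned at random to 2000 UMIs, so that deep and shallow cells could be compared, and 5 epithelial cells with fewer were left out. Of the 9 members a cell then held on average 2.4 and 2.56 for N, 2.42 and 2.61 for E, 2.58 and 2.53 for Y, and 1.63 and 1.64 for EY. Both EY values lay below the other 6. Cells without any member UMI made up 31.4% in EY1 and 24.4% in EY2, against 10.5 to 13% in the other libraries. The same order held among cells low in Krt13 and Krt4 (under 20% of 5 keratins), with 1.83 and 1.82 members in EY against 2.69 to 2.86. With 2 libraries per group this was not tested. Genes at large were not counted in this way, so whether the lower counts in EY are particular to the members is not known.

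The share of cells with a Col17a1 UMI was 47.3% (45.7 to 49%) in N1 and 49.9% (45 to 54.8%) in N2 (exact Clopper-Pearson 95% interval, counting error only). It was 48.4% (46.8 to 49.9%) in E1, 58.6% (54.4 to 62.7%) in E2, 47.9% (45.1 to 50.7%) in Y1 and 43% (39.9 to 46.1%) in Y2. In EY1 it was 28.4% (21.7 to 35.8%) and in EY2 16.3% (14.7 to 18%), so the intervals of both EY libraries lay wholly below those of the other 6. EY1 was close to N1 in CPM yet far below it in the share of cells. The sums give deep cells more weight, whereas the thinned shares count every cell alike. Whether this accounts for the difference in EY1 was not tested. Before thinning the shares were 85.3 to 91.1% in N, E and Y, 59.4% in EY1 and 57.2% in EY2. In Ptprc-positive cells, which should lack collagen XVII, the thinned share was 0.795 to 2.18%, at a median of 3372 to 10871 UMIs per cell by library against 12575 to 23570.0 in epithelial cells.

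The thinned shares of Dst, Itga6, Itgb4, Lamb3 and Plec were also lower in both EY libraries than in the other 6, although the EY1 interval overlapped that of at least 1 other library for Itga6, Itgb4, Lamb3 and Plec. For Dst they were 22.5% and 23.7% in EY and 40.7 to 57.2% elsewhere. For Itga6 they were 21.9% and 20.8% against 25.8 to 34.9%, and for Itgb4 18.9% and 19.9% against 25.9 to 33.1%. Lamb3 gave 12.4% and 10.1% against 15.7 to 18.9%. Lama3, at 4.14% and 3.6% against 4.52 to 7.47%, was too sparse to order. Plec was at 23.7% and 26.7%, below 31.7 to 42.4%. For Itga3 and Itgb1 the EY1 shares, 5.92% and 25.4%, went against the CPM, so no order is read from them. Thinned shares were not computed for all genes, so how common a lower share in both EY libraries is among them is not known.

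The other cells set the background for each member. Itgb4 was found in 0.271 to 1.2% of Ptprc-positive cells, Itga3 in 0.259 to 1.09% and Itga6 in 1.43 to 4.24%. Lama3 was in at most 0.467% of them, and in 0 of 919 thinned cells in E2, which allows a share of up to 0.326% of thinned cells with a UMI. Before thinning 0.867% of those E2 cells had one. Itgb1 and Plec, which leukocytes also express, were in 17.1 to 41.2% and 16.9 to 34.3% of Ptprc-positive cells. Their shares in epithelial cells therefore do not mark the cell type.

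**Figure D3:**
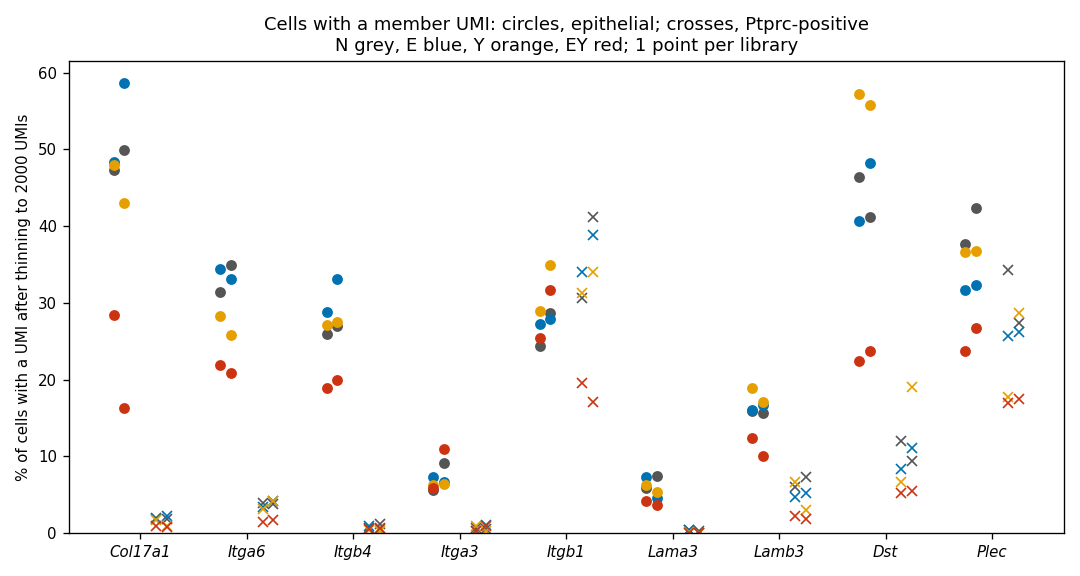
Percent of cells with a UMI of each gene after thinning to 2000 UMIs per cell, 1 point per library, for epithelial cells (circles) and Ptprc-positive cells (crosses). Both EY libraries (red circles) sit below the other epithelial points for Col17a1, Dst, Itga6 and Itgb4, and the crosses reach the circles only for Itgb1 and Plec.

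Position in the epithelium was read from the keratins. The share of Krt13 and Krt4 UMIs among those of Krt5, Krt14, Krt15, Krt13 and Krt4 was taken for each cell, and cells under 20% were called low and those of at least 50% high. These are ranges of a score, not cell types, and 5.06% (E2) to 13.8% (Y2) of a library's cells lay within 5 percentage points of the low limit. Neither range used a member gene. EY1 had 16 high cells, under the minimum of 20, and was left out of this fit, so it rests on 7 libraries.

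All 9 members were higher in low cells, at a background of 18.9% of 11134 genes called higher and 16.0% lower. The median log2 fold change was 1.89 over the members and 0.04 over all genes. The result was 9 of 9 higher under every alternative tried, although leaving out EY1 repeats the main fit, which already lacks it. Itga3 had the largest difference. In low cells it was at 33.6 and 50.9 CPM for N, 38.2 and 42 for E, 33.7 and 34.1 for Y, and 48.3 and 75.6 for EY, and in high cells at 4.27 and 3.06 CPM for N, 3.45 and 2.74 for E, 4.87 and 4.04 for Y, and 0 and 10.3 for EY. Low exceeded high in 8 of 8 libraries, and the fit over 7 gave 3.05 (SE 0.13, edgeR adjusted p = 6.79e-08).

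The laminin chains followed. Lamb3 in low cells ran from 62.5 CPM (EY2) to 123 CPM (Y1), and in high cells from 0 (N2, 31 cells) to 23.3 CPM (E2), with a log2 fold change of 2.73 (SE 0.21, edgeR adjusted p = 3.54e-06). Lama3 gave 2.70 (SE 0.20, edgeR adjusted p = 2.42e-06), with 23.2 to 56.8 CPM in low cells and 0 to 7.87 CPM in high cells. Both genes were thus higher where Krt13 and Krt4 were low.

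Among the receptors, Col17a1 in low cells was at 379.7 and 524 CPM for N, 386 and 544 for E, 428 and 395 for Y, and 327 and 103 for EY. In high cells it was at 66.1 and 76.6 CPM for N, 65.8 and 144 for E, 83.9 and 106 for Y, and 0 and 5.44 for EY. Low and high cells overlapped only through EY2, whose low cells held less Col17a1 than the high cells of E2 and Y2, and within every library low exceeded high. The log2 fold change was 2.38 (SE 0.18, edgeR adjusted p = 2.51e-06). Itgb4 gave 1.89 (SE 0.16, edgeR adjusted p = 6.78e-06), Itgb1 1.49 (SE 0.09, edgeR adjusted p = 5.56e-07) and Itga6 1.46 (SE 0.08, edgeR adjusted p = 3.06e-07).

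The plakins differed least. Dst in low cells was at 173 (EY2) to 654 CPM (Y1) and in high cells at 82.2 (EY2) to 324 CPM (Y2). The difference was 1.33 (SE 0.10, edgeR adjusted p = 3.54e-06) for Dst and 1.16 (SE 0.08, edgeR adjusted p = 1.45e-06) for Plec. Both were thus still measured in cells high in Krt13 and Krt4, with Dst in Y libraries at 252 and 324 CPM there.

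**Figure D4:**
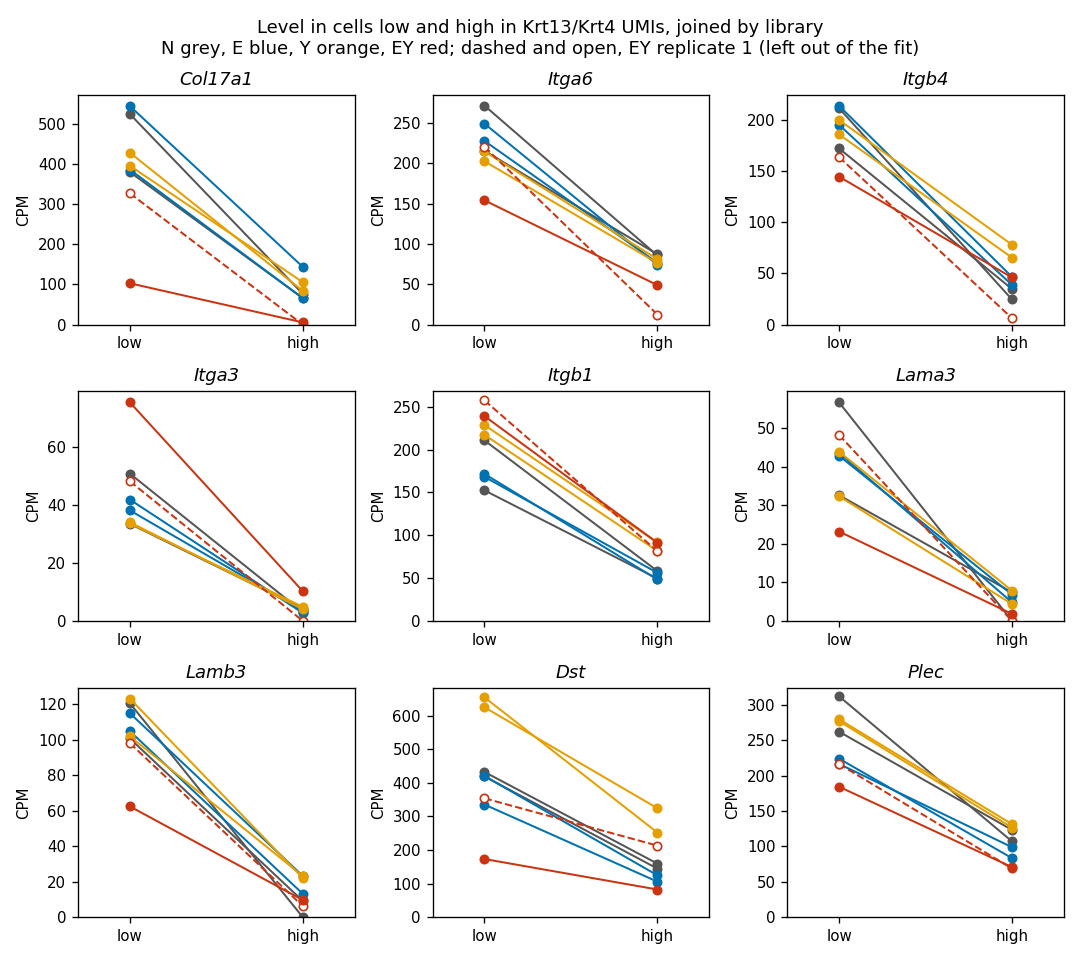
Level of each gene, in CPM on a linear axis from 0, in cells low and high in Krt13 and Krt4, with the 2 values of a library joined by a line (N grey, E blue, Y orange, EY red). The dashed line is EY1, whose 16 high cells were too few for the fit. Every line falls from low to high, for Itga3 from 33.6 to 75.6 CPM in low cells to at most 10.3 CPM in high cells.

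Groups were then compared within these ranges. Low cells made up 79.7% and 84.6% for N, 80.1% and 81.2% for E, 73.4% and 66.9% for Y, and 80.6% and 81.1% for EY. Both Y libraries were the lowest of the 8. The 4 libraries with the YAP transgene averaged 75.5% and the 4 without 81.4%, a difference of −5.89 percentage points (p = 0.229, exact permutation of the library labels, two-sided, 70 labellings). With a low limit of 10% in place of 20% it was −10.9 points (exact permutation p = 0.0286, the smallest these labellings can give), with Krt5, Krt14 and Krt15 in the gate it was −9.73 points (exact permutation p = 0.0286), and without cells holding a stromal or muscle UMI it was 0.398 points. With E6-E7 the difference was 4.58 points (exact permutation p = 0.314). Without N2 it was 7.39 points (exact permutation p = 0.0286). In low cells alone, EY against N again called 1 member, Plec, at −0.52 (SE 0.15, edgeR adjusted p = 0.0487), and a background of 20.6%. Col17a1 there was at −1.09 (SE 0.47, edgeR adjusted p = 0.129), close to the value over all epithelial cells. The YAP transgene and E6-E7 called 0 members in low cells (backgrounds 7.74% and 0.386%), with 1 and 2 at an unadjusted p under 0.05 in edgeR and 1 (Itgb1) and 1 (Plec) called by DESeq2. Of 12945 genes, 3956 and 1343 had such an unadjusted p in edgeR, and DESeq2 called 2352 and 234.

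Dividing cells carried less of several anchorage genes. Cells with at least 3 UMIs of 8 mitotic genes after thinning were called cycling. They made up 10.7% (E2) to 36.3% (EY2) of a library. Against the other cells of the same library, 5 of 9 members were lower and 0 higher (backgrounds 15.8% and 12.6% of 11682 genes). Lama3 was at 17.6 and 43.5 CPM for N, 28.3 and 33 for E, 21.8 and 14.6 for Y, and 19.8 and 21.5 for EY in cycling cells and at 31.4 and 52.7 CPM for N, 39.1 and 38.8 for E, 40.0 and 30.9 for Y, and 49.2 and 18.5 for EY in the others. It was lower in 7 of 8 libraries, with a log2 difference of −0.64 (SE 0.14, edgeR adjusted p = 0.00569). The others were Itga6, −0.32 (SE 0.07, edgeR adjusted p = 0.0045), Plec, −0.28 (SE 0.06, edgeR adjusted p = 0.00644), Col17a1, −0.28 (SE 0.08, edgeR adjusted p = 0.0213), and Dst, −0.19 (SE 0.07, edgeR adjusted p = 0.0479). Itga3, Itgb1, Itgb4 and Lamb3 did not pass, at −0.12 (SE 0.08, edgeR adjusted p = 0.305), −0.06 (SE 0.06, edgeR adjusted p = 0.503), 0.04 (SE 0.07, edgeR adjusted p = 0.746) and −0.08 (SE 0.06, edgeR adjusted p = 0.373). Within low cells only, a comparison added after seeing the data, 5 members were again lower, as were 1579 of 11441 genes. Lama3 was at −0.70 there (SE 0.15, edgeR adjusted p = 0.00576). With a gate of at least 2% keratin UMIs 0 of 9 were called, and 3 had an unadjusted p under 0.05 in edgeR. Of 10742 genes in that fit, 2271 were called and 3726 had such an unadjusted p. Leaving out E1, Y1 or Y2 left 3 called. With at least 5 UMIs of the mitotic genes, 3 were lower and Itgb4 was higher, at 0.16 (SE 0.05, edgeR adjusted p = 0.0477). Of 11372 genes in that fit, 1709 were called lower and 1357 higher. Dst lost its call in 12 of 19 alternatives.

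The wider adhesion lists were read beside the members. Of 23 other basement membrane genes, 19 were tested in EY against N. Among them 0 rose and 5 fell, with a median log2 fold change of −0.90, where 9.31% of all genes were called higher and 9.5% lower. Egfl6, a basement membrane ligand of integrins, fell most, from 18.3 and 22.8 CPM in N1 and N2 to 1.63 and 0.199 in EY1 and EY2, with a log2 fold change of −5.88 (SE 0.83, edgeR adjusted p = 0.00983). It was also lower with the YAP transgene across all 8 libraries, at −3.76 (SE 0.74, edgeR adjusted p = 0.0222), with 2.37 and 4.22 CPM in Y1 and Y2. Of 9 other integrins 7 were tested, 0 rose and 2 fell. Itgb5, a partner of the αv chain, was at 19.1 and 23.2 CPM for N, 20.3 and 21.9 for E, 20.2 and 13.2 for Y, and 10.2 and 5.47 for EY. Both EY libraries lay below the other 6, and EY against N gave −1.58 (SE 0.34, edgeR adjusted p = 0.024). How many of all genes have that order was not counted.

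In the list of 20 adhesion adaptors, which also holds the genes of the membrane proteins Cd151, Cd9 and Cd81, 3 rose and 1 fell in EY against N. The median was −0.04. Actn1, the actin cross-linker α-actinin 1, was at 23.8 and 21.2 CPM for N, 26.3 and 21 for E, 43.4 and 51.3 for Y, and 86.1 and 147 for EY. It was higher in each of the 4 libraries with the YAP transgene than in any without, as were 1275 of 13555 tested genes. Its log2 fold change was 2.38 (SE 0.27, edgeR adjusted p = 0.0076) for EY against N and 1.69 (SE 0.29, edgeR adjusted p = 0.0132) for the YAP transgene. Parva, a partner of integrin-linked kinase, rose by 0.77 (SE 0.19, edgeR adjusted p = 0.0359), and Tns1, a tensin, changed by −2.69 (SE 0.68, edgeR adjusted p = 0.0358). Tns3 and Actn4 were called for the YAP transgene, at 0.80 (SE 0.17, edgeR adjusted p = 0.0273) and 0.60 (SE 0.11, edgeR adjusted p = 0.0143). Between low and high cells, 15 of 16 tested basement membrane genes were higher and 0 lower, with a median of 2.12, where 18.9% of all genes were called higher. Frem2, at 3.76 (SE 0.19, edgeR adjusted p = 1.3e-07), and Agrn, at 2.69 (SE 0.17, edgeR adjusted p = 6.55e-07), were among the 3 largest of those over 20 CPM. The other integrins gave 3 higher and 1 lower (Itgb5) of 6, and the adaptors 14 higher and 2 lower of 20. Tns1, Tns3 and Tln1, the gene of talin 1, were the largest of those over 20 CPM, with Tns3 at 1.76 (SE 0.18, edgeR adjusted p = 2.34e-05) and Tln1 at 1.70 (SE 0.15, edgeR adjusted p = 8.94e-06).

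The 3 lists were also counted in the remaining comparisons. EY against E gave 0 higher and 5 lower basement membrane genes, 0 and 2 other integrins, and 2 and 1 adaptors in edgeR, where 16.4% of all genes were called. The YAP transgene gave 0 and 1, 0 and 0 (5 integrins at an unadjusted p under 0.05 in edgeR, and 4 called by DESeq2), and 3 and 0, where 8.98% of all genes were called. Of 13555 genes, 4252 had such an unadjusted p in edgeR for the YAP transgene, and DESeq2 called 2762. In low cells alone, EY against N (20.6% of all genes called) gave 0 and 6, 0 and 3, and 3 and 1, with Col7a1, the anchoring fibril collagen, at −1.53 (SE 0.41, edgeR adjusted p = 0.0364). The YAP transgene in low cells (7.74%) gave 0 and 1, 1 and 0, and 3 and 0.

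EY against Y, Y against N, E against N, E6-E7 and the interaction called 0 genes of the 3 lists in edgeR. The lists had 19, 7 and 20 tested genes in these comparisons, out of 13555 genes (12945 in low cells). Counts over all genes are in parentheses. In EY against Y, 9 basement membrane genes, 2 integrins and 4 adaptors had an unadjusted p under 0.05 in edgeR (3169), and DESeq2 called 5, 2 and 2 (880). In Y against N these were 4, 1 and 4 (1649), and DESeq2 called 1, 0 and 2 (457). In E against N they were 1, 0 and 0 (506), and DESeq2 called 0 in each list (131). E6-E7 gave 2, 1 and 2 (1554), and DESeq2 called 2, 0 and 0 (293). In low cells alone E6-E7 gave 2, 1 and 3 (1343), and DESeq2 again called 2, 0 and 0 (234). The interaction gave 6, 2 and 2 (1562), and DESeq2 called 1, 0 and 0 (89). Cycling against other cells (12.6% of all genes called higher and 15.8% lower) gave 2 higher and 3 lower of 18 basement membrane genes. Of the 20 genes on the adaptor list 1 was higher and 1 lower, namely Ilk at 0.37 (SE 0.08, edgeR adjusted p = 0.00511) and Cd9 at −0.25 (SE 0.04, edgeR adjusted p = 0.00141). None of 6 integrins was called there by either tool, with 0 at an unadjusted p under 0.05 in edgeR.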

How the data were processed

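Per the labels and the file headers, the authors counted reads of droplet 3′ libraries with Cell Ranger 5.0.0 against mm10, and the deposited matrices hold raw UMI counts for every gene and called cell. The kit version differs between the labels and the study's methods. Replicates are numbered in accession order. The study's cell limits were applied (1000 to 5500 genes, up to 30000 UMIs, up to 7% of UMIs mitochondrial), and no doublet caller was run. UMIs of epithelial cells were summed per library and tested with edgeR 4.0.16 in R 4.3.3 (filterByExpr, TMM scaling, quasi-likelihood test, Benjamini-Hochberg adjustment over all genes tested, adjusted p under 0.05 called). DESeq2 1.42.0 was an alternative. A model with a mean per group gave contrasts and the interaction, an additive model the transgene effects, and fits with library as a block compared cell ranges, each with at least 20 cells per library. The SE of a log2 fold change was derived from its F statistic. CPM uses TMM-scaled totals, except for Yap1, Dcn and the cell type marker lists, and in Ptprc-positive cells and cells over the limits, where library totals were left unscaled. P-values rest on 2 libraries per group. The fits were tested on simulated data.

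Named beside the 9 genes are, of each of 3 adhesion lists, up to 3 called genes with the largest change and a mean of at least 20 CPM in 1 group. 1 gene that this rule names is not reported here. The genes and lists were chosen with earlier results of these data known. Coordinates are from GENCODE for GRCm38. Summaries used Python 3.11.15, pandas 2.3.3 and SciPy 1.17.1.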

Additional observations from a re-analysis of the deposited data

How the results depend on the processing

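With 170 cells, EY1 limits every comparison with EY. The count of members higher in low than in high Krt13/Krt4 cells was 9 under each alternative. Leaving out EY1 repeats the main fit there, which already lacks it. Called members in EY against N numbered 1, and 0 with RLE scaling, at least 2% keratin UMIs or no UMI of the stromal lists other than Dcn (an alternative chosen after seeing the data), 2 with no UMI of the full stromal and muscle lists, 4 with no low-count filter, 6 with no upper limits, and 0 to 5 leaving out 1 library (5 without EY1, 0 without each other library). In low cells the count was 0 with RLE scaling or a 10% limit, 4 with no stromal or muscle UMI, 3 with no low-count filter, 7 with no upper limits, and 0 to 6 leaving out 1 library (6 without EY1). EY against E went from 0 to 3 with no low-count filter, to 5 with no upper limits, and 0 to 3 leaving out 1 library (3 without EY1). EY against Y went from 0 to 2 with DESeq2, 1 with at least 2% keratin UMIs, 3 with no low-count filter, 1 with no upper limits, and 0 to 3 leaving out 1 library (3 without EY1). With no low-count filter, the interaction called 3 members, Y against N 1, the YAP transgene 1 (1 in low cells) and E6-E7 1 (1 in low cells). That setting called 4273 of 21743 genes for EY against N, 3918 for EY against E and 2117 for EY against Y. It called 672 for the interaction, 1208 for Y against N, 3250 for the YAP transgene and 765 for E6-E7. In low cells it called 4126, 3244 and 905 of 21272 genes for EY against N, the YAP transgene and E6-E7. With no upper limits the YAP transgene called 4 (4 in low cells), and with 1 library left out 0 to 1 (Itgb1 without N2) in both sets of cells. DESeq2 called 1 member for E6-E7, 1 in low cells, and 1 for the YAP transgene in low cells. Cycling against other cells called 5, and 0 with at least 2% keratin UMIs, 3 with no stromal or muscle UMI and 3 to 5 leaving out 1 library (3 without E1, Y1 or Y2). With no stromal or muscle UMI, 2983 of 12482 genes were called for EY against N, 3126 of 11749 in low cells and 1738 of 10513 for cycling. At least 2% keratin UMIs called 3347 of 12543 genes for EY against N and 1046 for EY against Y. Fits without 1 library are listed here without a share of all genes. Of single members, Lama3 in EY against N ran from −1.004 to 0.14 leaving out 1 library (−1.004 without EY1), and reversed without EY2 (0.14) and without N2 (0.13). The difference in the share of low cells with the YAP transgene, −5.89 percentage points, was −9.73 with Krt5, Krt14 and Krt15 in the gate and −10.9 with a 10% limit (exact permutation p = 0.0286 for both, the smallest that 70 labellings can give), reversed to 0.398 with no stromal or muscle UMI, and ran from −7.75 to −3.04 leaving out 1 library. For E6-E7 it ran from 1.51 to 7.39 leaving out 1 library, the highest without N2 (exact permutation p = 0.0286). The cause of these changes was not tested. No paired analysis was possible because the replicate numbers follow accession order and the labels give none.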

Other observations

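The balance of the laminin-binding α chains differed in EY2. Itga3 made up 32.4% (31.3 to 33.5%) of the UMIs of Itga3 and Itga6 together in EY2 (exact Clopper-Pearson 95% interval, counting error only) and 17.7% (14.7 to 21%) in EY1. It was 12.5% and 15% for N, 12.6% and 14.6% for E, and 12.3% and 12.5% for Y. The EY1 interval overlapped that of N2, and no test was made. For the β chains both EY libraries were highest and Y came next, whereas the Itga3 shares of Y did not exceed those of N and E. Itgb1 made up 62.4% and 62.3% of Itgb1 and Itgb4 UMIs in EY1 and EY2. It made up 52.7% and 55.5% in Y1 and Y2, and 44.5% to 49.9% in N and E. Itga6 held 51.5% to 58.5% of Itga6 and Itgb4 UMIs over the 8 libraries, and Lama3 23.9% to 33.4% of Lama3 and Lamb3 UMIs. These shares compare libraries only, since 3′ reads of different genes are not captured equally.

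For each member, the non-member gene with the most similar log2 CPM over the 8 libraries was picked from 5096 genes averaging 20 CPM or more. The Pearson correlations, given as a description of 8 points that share library depth and group, were 0.986 for Col17a1 with Gpbp1l1, 0.989 for Dst with Nbeal1, 0.978 for Lamb3 with Itch, 0.977 for Itgb1 with Dbndd2 and 0.971 for Itga6 with Cwf19l2. They were 0.967 for Itga3 with Sdc1, 0.961 for Itgb4 with Tvp23b, 0.956 for Lama3 with 2310009B15Rik and 0.955 for Plec with Daam1. Sdc1 encodes syndecan 1, a cell-surface proteoglycan of epithelia.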
